A study of Homo sapiens with 15 samples.

Results

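The gelsolin family comprises actin-binding proteins built from repeats of the gelsolin domain. The 8 genes described here, GSN, SCIN, CAPG, VIL1, AVIL, SVIL, FLII and VILL, were taken by symbol from the 60649 genes of the count table, and all 8 were found there and passed the filter on low counts that left 23711 genes for testing. mRNA was sequenced from K562, a human leukemia cell line from chronic myeloid leukemia that carries the BCR-ABL fusion and expresses erythroid genes. Cells were either left untreated (labelled only as untreated, with no vehicle named) or received martinostat, an inhibitor of histone deacetylases (HDACs), at 0.15, 0.25, 0.5 or 1 µM for 24 h. Each of the 5 groups held 3 biological replicates, so that 15 libraries were compared, and every group was the same line. Library totals ranged from 23755510 to 32805574 counted fragments.

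Gelsolin-type proteins sever actin filaments, cap their fast-growing ends or bundle them, mostly under the control of calcium and of the membrane lipid phosphatidylinositol 4,5-bisphosphate. GSN is the founding member and a known HDAC inhibitor-responsive gene, and gelsolin severing is part of how blood cells, platelets and dying cells reshape their cytoskeleton. SCIN and GSN sever and cap, CAPG caps without severing, villin (VIL1) and advillin (AVIL) carry an additional headpiece that binds and bundles filaments, and supervillin (SVIL) ties the cytoskeleton to the plasma membrane. FLII joins gelsolin repeats to leucine-rich repeats and also acts as a coregulator of transcription, whereas the role of villin-like (VILL) is less well defined.

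Before the members are described, 2 libraries need mention. The third library at 0.25 µM and the third at 0.5 µM scored 70.1 and 75.4 on the third principal component of log2 CPM, against 16 or less in the other 13 libraries, and they also had the highest TMM factors, 1.28 and 1.22. TMM is the scaling of libraries in edgeR that assumes most genes unchanged, and CPM denotes the count of a gene scaled to this library size. The TMM factors were 0.784 to 0.828 in the untreated libraries and 0.95 or more in every treated library. For most members values are also given without the third libraries at 0.25 and 0.5 µM. Of the 11 K562 markers all had counts in untreated cells, although HBE1 had only 13 there. Their summed level ran from 3090 to 3370 CPM in untreated cells and from 803 to 959 CPM at 1 µM, where 9 of the 11 fell and 1 rose. The 1 that rose was HBE1, which stayed near the floor (0.17 CPM in untreated cells and 0.491 at 1 µM). Of 13 markers of other cell types, 11 were testable, 5 rose and 3 fell at 1 µM, and their sum moved from between 162 and 179 to between 333 and 523 CPM. Most of the untreated sum came from EPCAM, which went from 141 to 20.5 CPM. COL1A1 alone, a fibroblast collagen, went from 4.36 to 398 CPM, while MS4A1 and KRT5, which mark B cells and basal epithelium, were at 0 in 11 and 13 of the 15 libraries and DCN, another fibroblast gene, averaged 0.326 CPM at 1 µM. The part of these shifts in the family's values was not tested, and in bulk RNA fewer cells with a transcript and less transcript per cell cannot be told apart.

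Upstream sequences are shown for GSN, which rose most, and FLII, which fell at every dose. RefSeq (GRCh38.p14) windows were matched for 7 of the 8 members, with 20 transcript starts in all, 6 of them for GSN, and the 250 bases before each start were read on the strand of the gene. The hexamer GGGCGG, the core of the GC box, was searched on both strands together with the TATA hexamer TATAAA. A GC box was present in 9 of the 20 windows, compared with 42.6% of 35116 such windows over all genes, and TATAAA was held by 10.7% of all windows. The following windows overlap no annotated exon, and capitals mark these hexamers or their reverse complement. The 2 GSN windows belong to different starts and are given because they differ in these letters, the first (chr9:121285855-121286104, plus strand) holding TATAAA on the other strand and the second (chr9:121299186-121299435, plus strand) a GC box. The FLII window (chr17:18258739-18258988, minus strand) contains 2 GC boxes. The GSN windows not shown hold 7, 3, 1 and 0 GC boxes, and those with 7 and 3 overlap annotated exons. Which GSN start these cells used was not analysed here, as counts were summed over the whole gene.
GSN, chr9:121285855-121286104: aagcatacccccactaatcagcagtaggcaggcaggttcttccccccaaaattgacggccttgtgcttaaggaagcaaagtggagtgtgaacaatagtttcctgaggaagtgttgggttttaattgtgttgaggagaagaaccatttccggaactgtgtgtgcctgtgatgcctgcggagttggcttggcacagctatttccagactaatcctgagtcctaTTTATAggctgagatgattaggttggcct
GSN, chr9:121299186-121299435: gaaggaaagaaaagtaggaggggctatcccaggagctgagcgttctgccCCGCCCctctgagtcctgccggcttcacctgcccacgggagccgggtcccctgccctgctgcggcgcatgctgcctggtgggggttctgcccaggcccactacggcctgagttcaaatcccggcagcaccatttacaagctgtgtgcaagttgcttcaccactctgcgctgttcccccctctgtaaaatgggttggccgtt
FLII, chr17:18258739-18258988: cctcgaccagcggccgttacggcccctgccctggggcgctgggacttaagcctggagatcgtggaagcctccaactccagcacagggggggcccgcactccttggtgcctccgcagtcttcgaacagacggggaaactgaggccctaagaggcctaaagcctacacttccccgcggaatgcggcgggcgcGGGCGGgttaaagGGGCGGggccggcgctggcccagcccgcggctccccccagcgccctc

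GSN, the severing and capping protein that gives the family its name (ENSG00000148180, chr9:121207794-121332843, plus strand), showed the strongest rise of the family. Untreated libraries held 10.4, 9.89 and 10.9 CPM. At 0.15 µM the values were 212, 181 and 223 CPM, at 0.25 µM 259, 260 and 194, at 0.5 µM 269, 279 and 219, and at 1 µM 282, 272 and 271. No treated library came near an untreated one, and the lowest value in the 0.25 and 0.5 µM groups was that of the third library in each. The log2 fold changes against untreated were 4.30, 4.51, 4.62 and 4.73 with rising dose, each with an SE of 0.17, and edgeR's adjusted p-value was 7.61e-13 at 0.15 µM and 9.73e-14 at 1 µM. In linear terms this was 19.7-fold at the lowest dose and 26.5-fold at the highest. Among the 10128 genes averaging at least 10 CPM, GSN ranked 223rd from the top at 0.15 µM and 290th at 1 µM.

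Most of the GSN response was present at the lowest dose. The mean at 0.15 µM was 74.6% of that at 1 µM, compared with 3.78% in untreated cells. Between neighbouring doses the log2 differences were 0.21, 0.11 and 0.11, none of which passed the test, with 95% intervals of -0.10 to 0.52, -0.20 to 0.41 and -0.20 to 0.41. From 0.15 to 1 µM the level rose by 0.42 on the log2 scale (SE 0.15, edgeR adjusted p = 0.0248), although this call was lost when any of 5 libraries was left out, the first or the second at 0.15 µM or any at 1 µM, with adjusted p-values from 0.0502 to 0.129. Without the third libraries at 0.25 and 0.5 µM, the step from 0.15 to 0.25 µM was 0.36 with an adjusted p-value of 0.0421. The antisense transcript GSN-AS1, whose exons share 2.52% of the exonic bases of GSN, was counted 9 times over the untreated libraries and 157 times at 1 µM, equal to 1.14% and 0.665% of the GSN counts. Libraries were made with a directional kit, but whether counting used the strand was not stated. If it did not, fragments of the shared stretch could not be assigned to either gene.

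**Figure D1:**
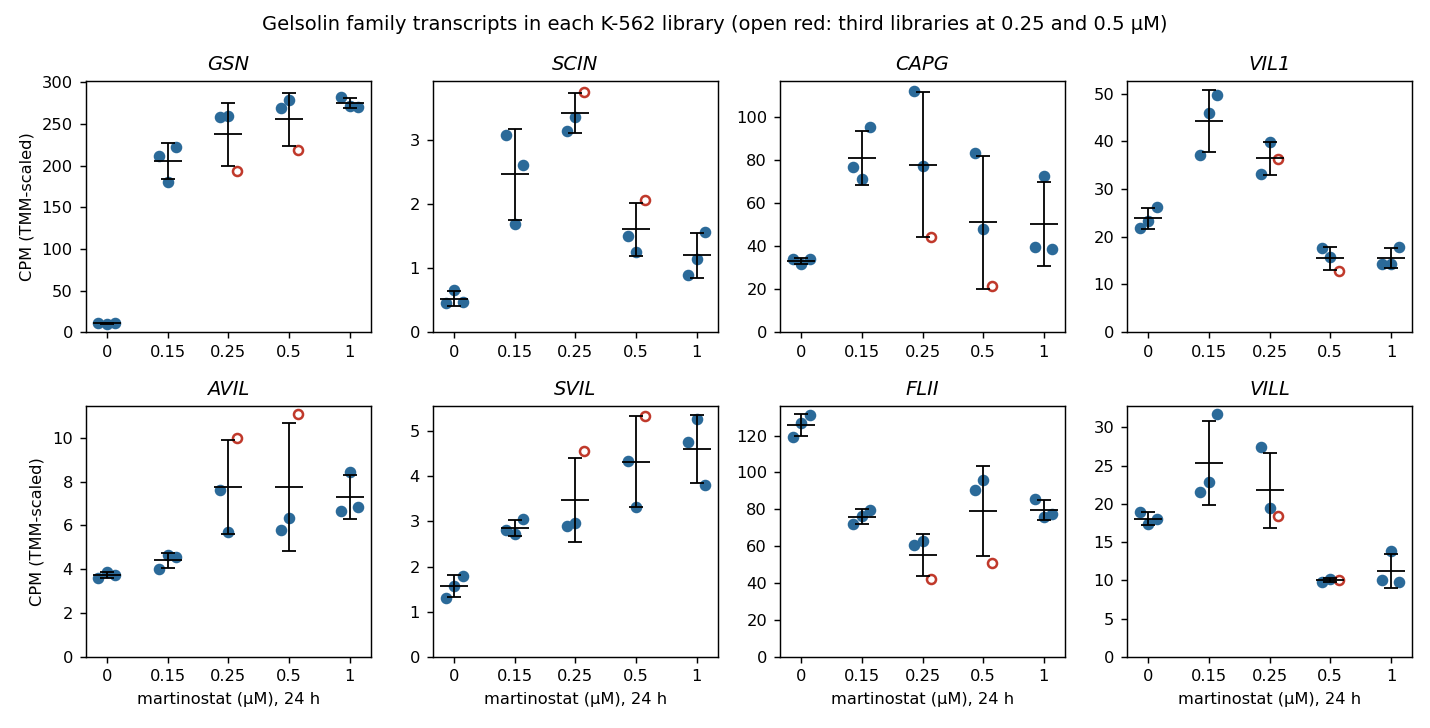
CPM of each family member (vertical axes, each starting at 0) in every library by martinostat dose (horizontal axes, µM). Points are libraries, horizontal bars with whiskers are the mean ± SD of 3, and open red points are the third libraries at 0.25 and 0.5 µM. GSN rises from 10.4 to 205 CPM at the lowest dose, whereas VIL1, VILL and SCIN are higher at 0.15 and 0.25 µM than at 0.5 and 1 µM.

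SCIN encodes scinderin (adseverin), a calcium-dependent severing protein of secretory cells and platelet precursors (ENSG00000006747, chr7:12570577-12660182, plus strand). It was the member with the fewest counts, 832 over all 15 libraries. Untreated libraries held 0.45, 0.657 and 0.47 CPM, those at 0.15 µM 3.09, 1.69 and 2.62, those at 0.25 µM 3.15, 3.36 and 3.76, those at 0.5 µM 1.5, 1.26 and 2.07, and those at 1 µM 0.887, 1.14 and 1.57. All treated libraries lay above all untreated ones, with the peak at 0.25 µM. With rising dose the log2 fold change was 2.22, 2.69, 1.62 and 1.18 (SE 0.35 or 0.36), with edgeR adjusted p-values of 3.51e-05, 2.25e-06, 5.58e-04 and 0.00725. Without the third libraries at 0.25 and 0.5 µM the value at 0.5 µM was 1.42 (adjusted p = 0.0032). SCIN fell from 0.25 to 0.5 µM by 1.08 (SE 0.31, adjusted p = 0.0134) and was lower at 1 than at 0.15 µM by -1.04 (adjusted p = 0.0132). The former call was lost without the third library at 0.25 µM or the second at 0.5 µM (adjusted p = 0.052 and 0.0665), and the latter without the first library at 0.15 or at 1 µM (0.0728 and 0.0718).

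CAPG, a capping protein without severing activity that is abundant in macrophages (ENSG00000042493, chr2:85394753-85418432, minus strand), varied more between replicates at 0.25, 0.5 and 1 µM than the other members, with coefficients of variation of 43.3%, 60.9% and 38.6%. Untreated libraries held 33.9, 31.5 and 33.8 CPM. Treated libraries held 76.8, 71.1 and 95.2 CPM at 0.15 µM, 112, 77.1 and 44.4 at 0.25 µM, 83.3, 48 and 21.5 at 0.5 µM, and 39.6, 72.5 and 38.4 at 1 µM. At 0.15, 0.25 and 1 µM every treated library exceeded the untreated ones, but at 0.5 µM the third library fell below them. CAPG rose at 0.15 µM (log2 fold change 1.29, SE 0.43, edgeR adjusted p = 0.0235) and at 0.25 µM (1.23, SE 0.43, adjusted p = 0.0242). At 0.5 and 1 µM the values were 0.62 and 0.60 with 95% intervals of -0.31 to 1.55 and -0.33 to 1.53, neither of which passed the test. Leaving out the third libraries at 0.25 and 0.5 µM gave 1.30, 1.54 and 1.04 at the 3 lower doses, with adjusted p-values of 0.00388, 0.00202 and 0.0176, and 0.65 at 1 µM (0.0755). Leaving out single libraries, the call at 0.15 µM was lost without any 1 of the untreated libraries or the third at 0.15 µM (adjusted p 0.0569 to 0.078) and that at 0.25 µM without any 1 of the untreated libraries or the first or second at 0.25 µM (0.0509 to 0.116).

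VIL1 (villin), the filament bundler and severing protein of intestinal and renal microvilli (ENSG00000127831, chr2:218419121-218453295, plus strand), moved in opposite directions at low and high dose. It was measured at 21.9, 23.3 and 26.3 CPM in untreated libraries. The values were 37.1, 46 and 49.7 CPM at 0.15 µM and 33.1, 39.9 and 36.3 at 0.25 µM, but 17.7, 15.8 and 12.9 at 0.5 µM and 14.3, 14.2 and 17.9 at 1 µM. No treated group overlapped the untreated one, the first pair of doses lying above it and the second pair below. VIL1 rose by 0.89 at 0.15 µM and 0.61 at 0.25 µM (edgeR adjusted p = 1.31e-04 and 0.00268) and fell by 0.62 at both 0.5 and 1 µM (adjusted p = 0.00225 for each, SE 0.16 throughout). Without the third libraries at 0.25 and 0.5 µM the value at 0.5 µM was -0.47 (adjusted p = 0.0146). The difference between the 2 levels was itself tested, the step from 0.25 to 0.5 µM being -1.24 ± 0.16 (adjusted p = 1.1e-05) and that from 0.15 to 1 µM -1.52 ± 0.16 (4.55e-07). VIL1 shares 44.2% of its exonic bases with USP37, a deubiquitinase gene on the other strand, which averaged 40.2 CPM in untreated cells and 20.5, 17.7, 32.6 and 35.1 CPM with rising dose. At 0.15 and 0.25 µM USP37 was thus lower while VIL1 was higher. At 0.5 and 1 µM the means of both genes were below those of untreated cells. The USP37 change at 1 µM did not pass the test (log2 fold change -0.20, edgeR adjusted p = 0.351). The library kit keeps the strand, but whether counting used it was not stated, and if it did not, reads of the shared exons could not be assigned to either gene.

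VILL, the villin-like gene (ENSG00000136059, chr3:37988059-38007188, plus strand), had a profile close to that of VIL1, with a Pearson correlation of 0.885 over the 15 libraries, the highest between any pair of members. As the libraries share the same 5 groups, this is a description. Its values were 18.9, 17.3 and 18 CPM in untreated cells, 21.6, 22.8 and 31.7 at 0.15 µM, 27.4, 19.5 and 18.4 at 0.25 µM, 9.8, 10.2 and 10.1 at 0.5 µM, and 10.1, 13.8 and 9.73 at 1 µM. Only the 0.25 µM group overlapped the untreated libraries. VILL rose at 0.15 µM (0.49 ± 0.19, edgeR adjusted p = 0.0369), a call that was lost without any 1 untreated library or without the third library at 0.15 µM (adjusted p 0.0633 to 0.229). It fell at 0.5 µM (-0.85 ± 0.19, adjusted p = 7.66e-04) and at 1 µM (-0.69 ± 0.19, adjusted p = 0.004). At 0.25 µM the value was 0.27 with a 95% interval of -0.13 to 0.67. The step from 0.25 to 0.5 µM was -1.12 ± 0.19 (adjusted p = 2.02e-04). No exon of another gene overlaps VILL, unlike VIL1.

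AVIL, a villin relative known from sensory neurons (ENSG00000135407, chr12:57797376-57818734, minus strand), held 3.6, 3.86 and 3.76 CPM in untreated libraries and 4.01, 4.63 and 4.58 at 0.15 µM. At the higher doses the values were 7.63, 5.69 and 9.99 CPM at 0.25 µM, 5.79, 6.36 and 11.1 at 0.5 µM, and 6.64, 8.46 and 6.83 at 1 µM. The 3 higher doses lay above the 0.15 µM group without overlap, and the 2 libraries that stand apart gave the highest values. AVIL did not pass the test at 0.15 µM (0.24 ± 0.26, 95% interval -0.31 to 0.78) and rose at 0.25, 0.5 and 1 µM by 1.06, 1.06 and 0.97 (edgeR adjusted p = 0.00162, 0.00141 and 0.00298). Without those 2 libraries the rises were 0.85, 0.74 and 1.01 (adjusted p = 0.00129, 0.00466 and 6.24e-05). AVIL was the only member called between 0.15 and 0.25 µM (0.82 ± 0.26, adjusted p = 0.0414), and that call failed in 10 of the 15 fits leaving out 1 library, with adjusted p-values from 0.053 to 0.191. Without both libraries that stand apart this step was 0.62 (adjusted p = 0.0494).

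SVIL (supervillin), a membrane-associated member that binds myosin and actin (ENSG00000197321, chr10:29457338-29736959, minus strand), rose at every dose. Libraries held 1.31, 1.58 and 1.8 CPM without drug, 2.81, 2.72 and 3.06 at 0.15 µM, 2.91, 2.97 and 4.56 at 0.25 µM, 4.33, 3.31 and 5.33 at 0.5 µM, and 4.76, 5.28 and 3.8 at 1 µM. Treated and untreated libraries did not overlap. The log2 fold changes were 0.87, 1.16, 1.47 and 1.56 (SE 0.27 each), with edgeR adjusted p-values of 0.0125, 0.00116, 1.07e-04 and 5.66e-05. No step between neighbouring doses passed the test, but the rise from 0.15 to 1 µM did (0.69 ± 0.26, adjusted p = 0.0386), a call lost without any 1 library at 0.15 µM or without the first or the second at 1 µM (adjusted p 0.0583 to 0.131). The call at 0.15 µM was lost without the first untreated library (adjusted p = 0.0528). Without the third libraries at 0.25 and 0.5 µM the value at 0.25 µM was 0.93 (adjusted p = 0.0051). SVIL has pseudogene copies, of which SVIL2P was counted 4 times over the untreated libraries and 29 times at 1 µM, and reads of near-identical stretches may be split between them. The counted antisense gene SVIL-AS1 averaged 15 CPM in untreated cells and 12.4 at 1 µM and did not pass the test (adjusted p = 0.129). In the annotation used here SVIL-AS1 has another gene ID, which was not counted, and shares 7.95% of the exonic bases of SVIL. Whether counting used the strand was not stated.

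FLII (flightless I; ENSG00000177731, chr17:18244815-18258738, minus strand) was the one member that fell at every dose. The untreated libraries held 119, 127 and 131 CPM. Values were 71.9, 76.5 and 79.7 CPM at 0.15 µM, 60.8, 62.6 and 42.1 at 0.25 µM, 90.3, 96.1 and 51 at 0.5 µM, and 85.7, 75.8 and 77.3 at 1 µM. Every treated library lay below every untreated one, and the third libraries at 0.25 and 0.5 µM were the lowest of their groups. FLII fell by 0.73, 1.19, 0.67 and 0.66 with rising dose (SE 0.19 each, edgeR adjusted p = 0.0039, 3.17e-05, 0.00481 and 0.00537). Without the 2 libraries that stand apart the values were -0.72, -1.01, -0.40 and -0.62, all still called. FLII was higher at 0.5 than at 0.25 µM (0.52 ± 0.19, adjusted p = 0.0477), a call lost in 12 of the 15 fits that leave out 1 library (adjusted p 0.0558 to 0.239). Without the 2 libraries that stand apart this step was 0.61 (adjusted p = 7.49e-04). The neighbouring gene LLGL1, a cell polarity gene on the other strand that shares 61 exonic bases with FLII, rose from 31.9 to 77.6 CPM at 1 µM (log2 fold change 1.29, adjusted p = 8.57e-07).

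**Figure D2:**
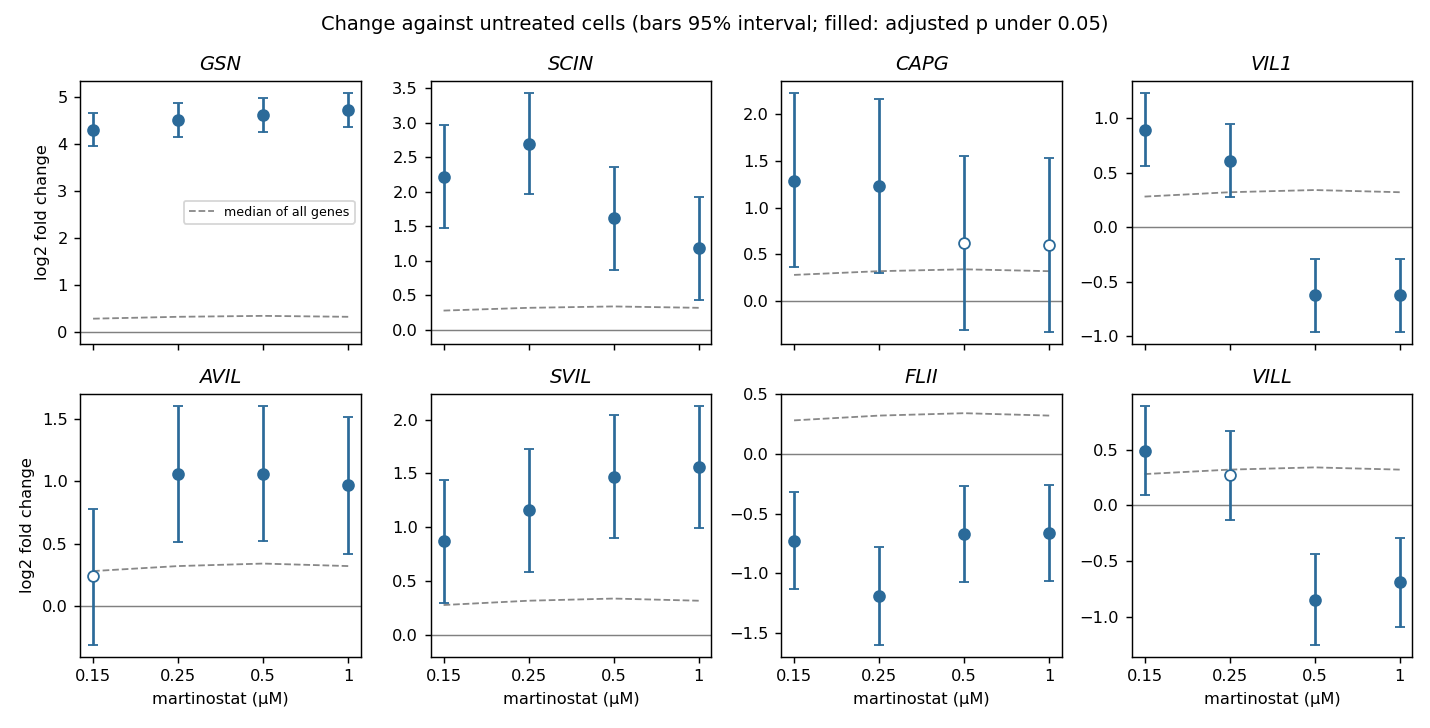
log2 fold change of each member against untreated cells (vertical axes, scaled per gene) at 4 martinostat doses (horizontal axes, µM), with 95% intervals as bars, filled points where the edgeR adjusted p-value is under 0.05, and the median of all tested genes dashed. VIL1 and VILL lie above 0 at the lower doses and below it at 0.5 and 1 µM, and FLII lies below 0 at each dose.

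Counted over the family, 6 members were higher and 1 was lower at 0.15 µM, when 31.9% of all tested genes were called higher and 19.4% lower. At 0.25 µM it was again 6 and 1, against 37.4% and 24.8% of all genes. At 0.5 µM 4 members were higher and 3 lower, against 39.4% and 27.6%, and at 1 µM likewise 4 and 3, against 38.8% and 27.5%. The median log2 fold change of the members was 0.88, 1.11, 0.84 and 0.78 with rising dose, compared with 0.28, 0.32, 0.34 and 0.32 over all genes. Members called in either direction were thus 7 of 8 at each dose, the exception being AVIL at 0.15 µM, VILL at 0.25 µM and CAPG at 0.5 and 1 µM. These 4 comparisons share the untreated libraries. A test of any difference among the 5 groups called 7 members and 73.6% of all genes, CAPG being the exception (adjusted p = 0.0778).

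Between doses, the step from 0.15 to 0.25 µM called AVIL alone, higher, where 4.96% of all genes were called higher and 7.32% lower. From 0.25 to 0.5 µM FLII was higher and SCIN, VIL1 and VILL were lower, against 14.4% of all genes higher and 16% lower. From 0.5 to 1 µM no member and 0% of all genes were called by edgeR, nor by DESeq2. Of the 23711 genes tested, 372 had an unadjusted edgeR p under 0.05. That is a smaller share than 0.05, the share awaited if no gene differed. For VIL1, VILL and FLII the 95% intervals of that step were -0.34 to 0.34, -0.25 to 0.56 and -0.39 to 0.41. Comparing 1 with 0.15 µM, GSN, AVIL and SVIL were higher and SCIN, VIL1 and VILL lower, whereas 21.5% of all genes were called higher and 23.1% lower.

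The calls of members as lower depended on how libraries were scaled. TMM placed the median gene at 0.32 at 1 µM, library totals placed it at 0.67, and TMM computed only on the genes averaging 10 CPM or more placed it at 0.70. At 1 µM the latter scalings each called 5 members higher, CAPG now included, and 0 lower. With library totals FLII was -0.31 (adjusted p = 0.0654), VIL1 -0.27 (0.134) and VILL -0.34 (0.145). Relative to the median gene, FLII was 0.98 lower, VIL1 0.94 lower and VILL 1.01 lower with either TMM or library totals, as scaling shifts all genes alike. No member changed sign in any comparison with untreated cells under any scaling. At 0.5 µM library totals kept the calls of FLII and VILL but not that of VIL1, and the restricted TMM kept none of the 3. The calls of GSN, SCIN and SVIL against untreated cells, and at 0.15 and 0.25 µM those of FLII, VIL1 and CAPG, were made under all 4 scalings. With RLE scaling the rise of VILL at 0.15 µM was no longer called (adjusted p = 0.0565). At 0.25 µM VILL was called higher with library totals (0.79, edgeR adjusted p = 0.0022) and with the restricted TMM (0.68, 0.00517). Relative to the median gene these 0.25 µM values were -0.06 and -0.05.

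**Figure D3:**
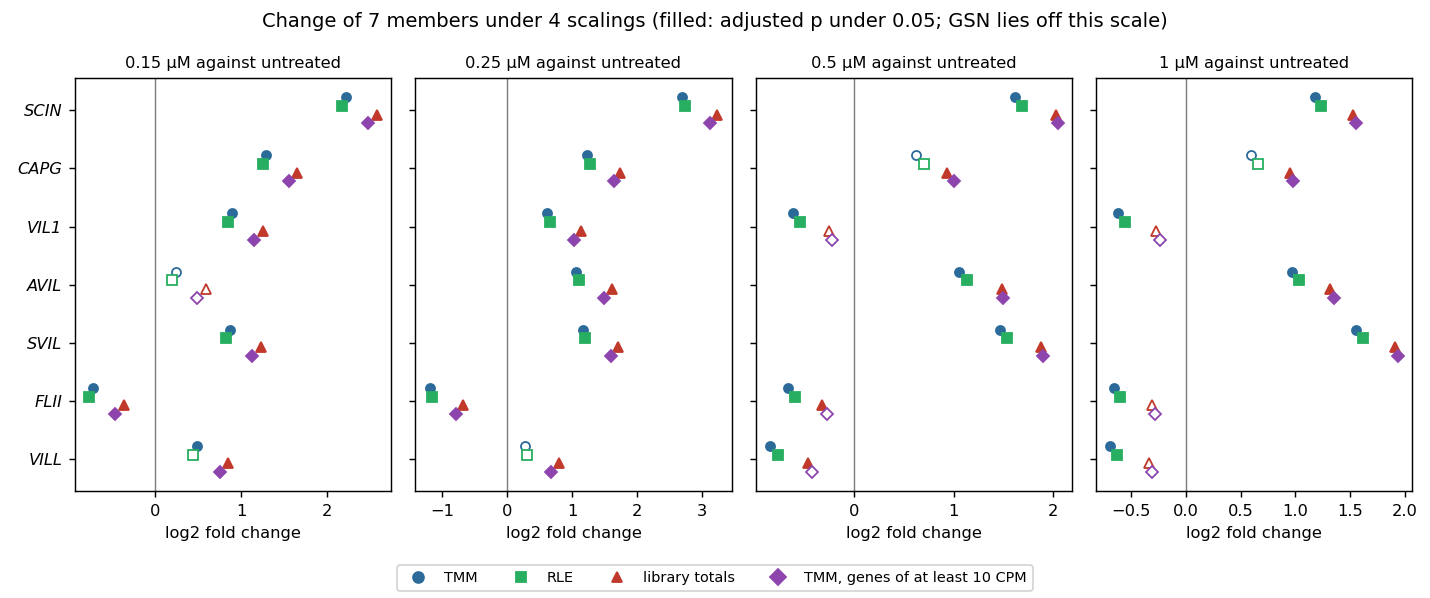
log2 fold change against untreated cells (horizontal axes) of 7 members (rows; GSN lies beyond the axis) at each dose under 4 scalings, with filled symbols where the edgeR adjusted p-value is under 0.05. At 1 µM FLII, VIL1 and VILL lie left of 0 under all 4 scalings but are filled only with TMM and RLE, the size factors of DESeq2.

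Levels were compared between members only per kilobase, with the union of annotated exons or the canonical transcript as gene length. In untreated cells FLII led with 20 ± 0.974 CPM per kb of exon union (SD, n = 3), followed by CAPG with 13.7 ± 0.568, and VIL1, VILL, GSN, AVIL, SVIL and SCIN followed at 3.46 or less. At 1 µM GSN led with 24.9 ± 0.568, ahead of CAPG with 20.7 ± 8.01 and FLII with 12.6 ± 0.843, and the ranges of GSN and CAPG overlapped (24.5 to 25.5 against 15.9 to 30). GSN thereby went from 2.26% ± 0.0663 to 39.3% ± 4.73 of the summed family level, and FLII from 47.9% ± 1.41 to 20% ± 3.07. With canonical lengths, where GSN measures 2595 instead of 11057 bases, the GSN share went from 5.56% to 61% and the FLII share from 41.8% to 11%. The length thus decided whether GSN or CAPG led at 0.15 and 0.25 µM, and whether GSN stood above or below VIL1 in untreated cells. The family sum rose from 41.6 ± 1.38 to 63.9 ± 7.75 CPM per kb with the exon union and from 72.1 ± 2.18 to 175 ± 15.2 with canonical lengths.

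**Figure D4:**
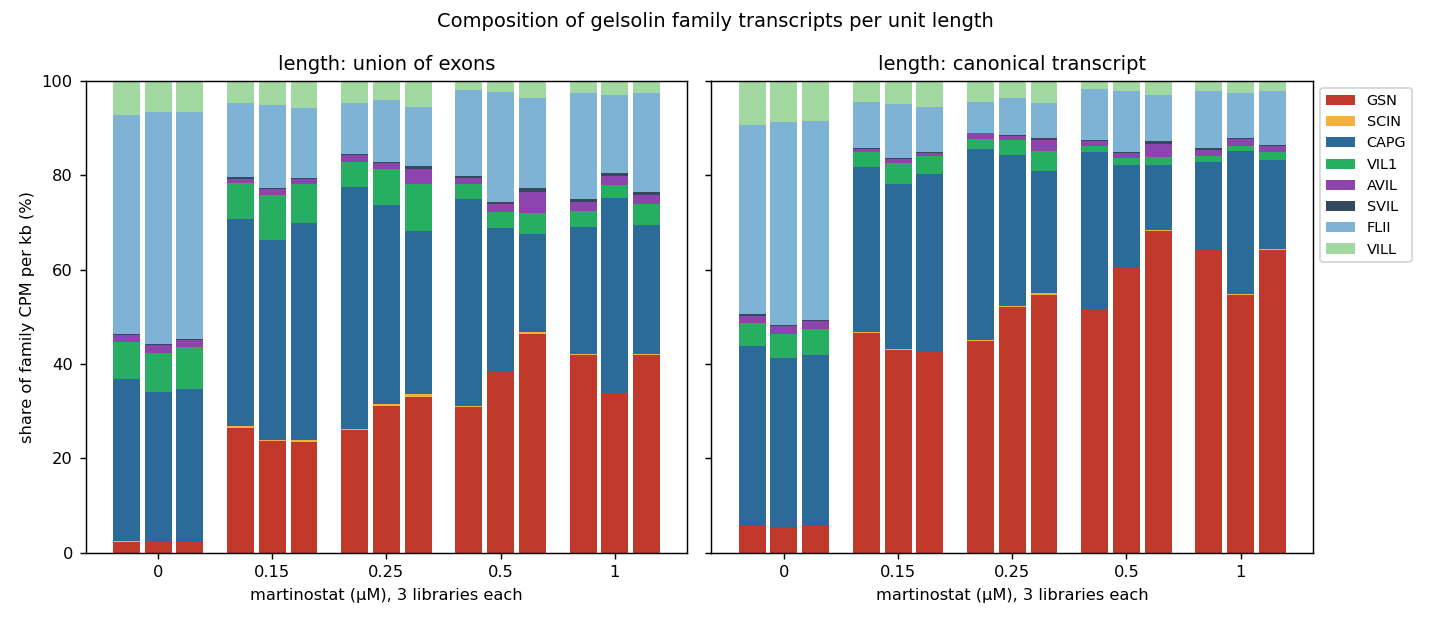
Share of each member in the summed CPM per kb of the family (vertical axis, %) in each of the 15 libraries, grouped by martinostat dose (horizontal axis, µM), with gene length from the exon union (left) or the canonical transcript (right). The GSN segment grows from 2.26% to 39.3% on the left and from 5.56% to 61% on the right between untreated cells and 1 µM.

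Genes whose log2 CPM followed each member most closely over the 15 libraries were sought among those averaging at least 10 CPM. For GSN they were CYP4F22 (Pearson r = 0.999), RIMS4 (0.998) and SLC22A17 (0.998). For VIL1 they were SQLE (0.984), a sterol synthesis enzyme, METTL7A (0.981) and SPI1 (0.978), the myeloid transcription factor PU.1, and for VILL GMPPA (0.978), SHROOM1 (0.975) and MINDY1 (0.971). FLII was followed by KIF1C (0.983) and LAMP1 (0.98), and CAPG by DUSP9 (0.956), PRDX5 (0.947) and MPI (0.935). SVIL had DNALI1 (0.959), FBXO44 (0.959) and STX1A (0.957), AVIL had MED7 (0.956), LINC02964 (0.951) and SOD1P3 (0.948), and SCIN had UXT-AS1 (0.951), NPL (0.95) and an unnamed gene (ENSG00000287804, 0.949). The 15 points fall into 5 dose groups, so that any genes with the same dose pattern correlate.

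Transcripts of actins and of other actin regulators were described at 1 µM, where 38.8% of all tested genes were called higher and 27.5% lower. Of 5 testable actin genes, 3 rose and 1 fell. ACTG1 (cytoplasmic gamma-actin) rose from 871 to 3160 CPM (log2 fold change 1.86), whereas ACTB (beta-actin) fell from 3360 to 2260 CPM (-0.57). No actin was called lower with library totals. The ACTG1 rise appeared between 0.25 µM (0.11, adjusted p = 0.7) and 0.5 µM (1.81, edgeR adjusted p = 2.58e-06), where VIL1 and VILL were also lower. The other actins called, ACTA1 and ACTA2, averaged 0.276 and 0.219 CPM over the 15 libraries.

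Among other severing, depolymerising and monomer-binding proteins, 5 of 13 genes rose and 4 fell at 1 µM, shares close to those of all genes, and the median of 0.27 was near the 0.32 of all genes. The actin-sequestering thymosins TMSB10 and TMSB4X rose (1.88 and 0.65), while the monomer-binding profilin PFN1 and the cofilin cofactor WDR1 fell (-1.60 and -1.85). Of 12 testable capping proteins outside the family 3 rose and 6 fell (median -0.32), against 38.8% and 27.5% of all genes. TMOD2, a tropomodulin of the slow-growing filament end typical of neurons, rose by 5.04, from 0.908 to 30.1 CPM. Its erythroid relative TMOD1 (-2.12) and the spectrin-binding ADD2 (-1.94) fell. Of 13 bundling, crosslinking and membrane-linking proteins (EZR, RDX and MSN being the last kind) 4 rose and 4 fell (median -0.10), again shares near those of all genes. ESPN (4.65, a bundler of microvilli and stereocilia) rose, and MSN (-2.87, moesin) and LCP1 (-3.21, the plastin of blood cells) fell.

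Of 15 filament nucleators 11 were called lower and 1 higher at 1 µM, against 27.5% and 38.8% of all genes, with a median of -0.69 compared with 0.32. With library totals 7 were lower and 2 higher (median -0.33), when 20.1% of all genes were lower and 45.6% higher and their median was 0.67. ACTR3 (-1.79) and ARPC4 (-1.06), subunits of the ARP2/3 complex, were lowest among the genes named here and WASF1 (0.41), an activator of that complex, was the 1 called higher with TMM. Of 14 testable genes of the serum response factor axis, which senses free actin, 5 rose and 6 fell (median -0.30), with MYL9 at 2.73 and the coactivator MRTFA at 1.11 but SRF itself at -1.31 and TAGLN2 at -1.57. Of 5 lipid kinases and FLII partners, PIP5K1C rose (1.35), which makes phosphatidylinositol 4,5-bisphosphate, and 3 fell, among them the FLII-binding LRRFIP1 (-1.20) and LRRFIP2 (-0.42). Among the K562 markers that fell was GYPC, a glycophorin of red cells (-5.21). Among markers of other cell types COL1A1 was highest (6.51) and EPCAM (-2.78) and COL1A2 (-0.96), the partner chain of COL1A1, were lower. All of these values are log2 fold changes at 1 µM with TMM scaling unless another is named, and each gene named passed edgeR's test. With library totals the medians of the capping, bundling and serum response lists were above 0 (0.03, 0.26 and 0.05).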

How the data were processed

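mRNA of 15 K562 libraries (5 groups of 3, by the sample labels) was quantified by the authors. They trimmed reads (Trim Galore 0.6.10, Trimmomatic), aligned them to hg38 with HISAT2 2.2.1, sorted with SAMtools 1.21 and deposited raw counts per gene from featureCounts 1.5.3 with a GENCODE annotation. Libraries were directional, the strand setting of counting being not given in the sources used here. The authors also deposited FPKM values, in which gene length equalled the genomic span including introns for 94.4% of genes (within 0.1%), so FPKM was used only in alternatives, on log2(FPKM + 1) and log2(FPKM + 0.1) scales. The authors' own fold change tables were not used. Counts were tested in R 4.3.3 with edgeR 4.0.16 (TMM, filterByExpr, robust quasi-likelihood fit of all 15 libraries with group as the only term). P-values were adjusted by Benjamini-Hochberg over 23711 genes, with a threshold of 0.05. The study itself used DESeq2, which was run here as an alternative (1.42.0), as was limma 3.58.1. Exons, overlaps and lengths came from GENCODE release 44 on hg38, with IDs matched without version. The fit was tested on simulated data for 1 µM against untreated, with the changed genes drawn above a count minimum. It recovered 65 of 100 changes of 2-fold and 100 of 100 of 4-fold, and called 7 unchanged genes. Changes of about 2-fold or less can therefore be missed. Library totals of 23755510 to 32805574 limit the precision for SCIN and SVIL most. Alternatives were RLE, library totals, other filters, only the groups compared, a replicate block, leaving out each library, and, chosen after seeing the data, leaving out the third libraries at 0.25 and 0.5 µM together, canonical transcript lengths, and other scalings for the lists. Replicate libraries differed beyond sampling noise. Named genes were all members, the 2 highest and 2 lowest called genes of each list averaging at least 10 CPM, the 3 genes most correlated with each member, and genes overlapping members; some genes that this rule names are not reported here. The members and lists were chosen with earlier results of these data known.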

Additional observations from a re-analysis of the deposited data

How the results depend on the processing

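Of 1728 values of single members recomputed under 27 alternatives, 1581 kept their direction and side of the threshold, 99 lost the call, 18 gained it and 30 changed sign, none of them called in either fit and none against untreated cells. The number of members called at 1 µM was 7 and became 3 with limma on log2(FPKM + 1) and 3 on log2(FPKM + 0.1). Between 0.15 and 0.25 µM the 1 member called became 2 with library totals and 2 without the third library at 0.25 µM and the third at 0.5 µM together. Leaving out 1 library at a time, 4 to 7 members were called at 0.15 µM (the lowest without the first untreated library), 0 to 2 from 0.15 to 0.25 µM, 2 to 4 from 0.25 to 0.5 µM (the lowest without the third library at 0.25 µM or the second at 0.5 µM) and 2 to 6 from 0.15 to 1 µM (the lowest without the first library at 0.15 µM). Sign changes concerned 8 differences between doses. GSN from 0.25 to 0.5 µM was -0.04 with library totals and -0.03 and -0.04 with FPKM + 1 and FPKM + 0.1. CAPG from 0.15 to 0.25 µM was 0.03 with RLE and DESeq2, 0.08 with library totals, 0.09 with TMM on genes of 10 CPM or more, 0.04 with 10 counts in every library, 0.02 on both FPKM scales and 0.24 without the third libraries at 0.25 and 0.5 µM. From 0.5 to 1 µM CAPG was 0.02 with library totals, 0.15 with limma-voom, 0.05 and 0.09 on the FPKM scales and 0.08 with the block, and without the same libraries AVIL was 0.28 and FLII -0.22. Leaving out single libraries, CAPG ranged from -0.42 to 0.24 and VILL from -0.43 to 0.01 between 0.15 and 0.25 µM, and from 0.5 to 1 µM CAPG from -0.39 to 0.53, AVIL from -0.26 to 0.27, SVIL from -0.06 to 0.28, FLII from -0.23 to 0.18 and VILL from -0.01 to 0.25. The causes were not tested. FPKM gives long, low genes values below the pseudocount, so SCIN and SVIL changed by as little as 0.01 on that scale. In most comparisons replicate numbers did not pair the libraries, as same-numbered deviations correlated at 0.0918 or less. Between 0.25 and 0.5 µM they did, each 0.5 µM library correlating most with its same-numbered 0.25 µM library (0.266, 0.268 and 0.579). The main fit did not use this pairing, and a fit pairing only these groups was not run. With the replicate number as a block, 7 members were called at each dose against untreated, 1 from 0.15 to 0.25 µM, 4 from 0.25 to 0.5 µM, 0 from 0.5 to 1 µM and 6 from 0.15 to 1 µM, as without the block, and 8 in place of 7 among the 5 groups. Depth limits SCIN (832 counts in all) and SVIL (1485).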
